A study of Mus musculus with 9 samples.

Results

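The MHC class II genes were followed through reperfusion injury of the mouse heart. The group held 7 genes, found by matching their symbols in GENCODE release M21 (build GRCm38) to the Ensembl IDs of a table of 38293 genes, and 7 of 7 passed the filter on low counts that left 14124 genes to test. They were H2-Aa, H2-Ab1 and H2-Eb1 (chains of the peptide-presenting receptor), Cd74 (the invariant chain), H2-DMa and H2-DMb1 (the peptide exchanger) and Ciita (the transactivator). Total RNA came from the left ventricle of 9 male C57BL/6 mice aged 8 weeks, all of them operated on. In 3 mice at 14 days and 3 mice at 1 day after ischemia-reperfusion (I/R) the infarct region was taken, after the left anterior descending coronary artery had been tied off for 1 hour and released. The other 3 mice had sham surgery, for which the time of collection is not given in the labels. The labels number the mice, so each library is a separate animal. Mice 4, 5 and 6 are the 1-day mice, and 1, 2 and 3 the sham mice. The columns of the mice at 14 days carry an identical heading in the count table, and the letters A, B and C stand for them here without saying which mouse is which.

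MHC class II molecules show peptides from endocytosed protein to CD4 T cells. An alpha and a beta chain assemble in the endoplasmic reticulum on the invariant chain, Cd74, which fills the groove and guides the complex to endosomes. There proteases trim Cd74 to a remnant, CLIP, and H2-DM exchanges CLIP for peptide. Ciita binds no DNA itself and acts through RFX, CREB and NF-Y proteins bound to the X and Y boxes of class II promoters, and interferon gamma is its best-known inducer. Dendritic cells, B cells and many macrophages make class II molecules, and in the heart macrophages and dendritic cells are the known carriers. C57BL/6 mice have no working E alpha gene (H2-Ea-ps), so their H2-Eb1 chain forms no surface E molecule.

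The start regions of 3 of the members are shown because the X and Y boxes through which Ciita is known to act lie in this part of class II genes. Each is 1 window of 300 bases, 250 before and 50 from the RefSeq start of the gene, on GRCm38.p6, read 5′ to 3′ on the gene's strand. Capitals mark matches, on either strand, to a Y box core with the letters ATTGG and to an X box core with the letters NACNGATG. H2-Aa lies at chr17:34287774-34288073 (minus strand), H2-Eb1 at chr17:34305617-34305916 (plus strand) and H2-DMb1 at chr17:34152941-34153240 (plus strand).
H2-Aa: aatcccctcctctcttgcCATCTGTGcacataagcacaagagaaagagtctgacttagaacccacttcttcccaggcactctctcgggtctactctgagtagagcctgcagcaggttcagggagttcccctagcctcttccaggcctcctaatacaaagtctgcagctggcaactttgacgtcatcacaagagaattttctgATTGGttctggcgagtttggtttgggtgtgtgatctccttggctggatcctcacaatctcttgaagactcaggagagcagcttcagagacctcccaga
H2-Eb1: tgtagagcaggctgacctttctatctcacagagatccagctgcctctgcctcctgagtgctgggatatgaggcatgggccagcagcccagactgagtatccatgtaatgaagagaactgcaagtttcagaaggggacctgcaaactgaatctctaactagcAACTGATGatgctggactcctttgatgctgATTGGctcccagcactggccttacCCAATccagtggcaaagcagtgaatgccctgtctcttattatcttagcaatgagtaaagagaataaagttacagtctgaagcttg
H2-DMb1: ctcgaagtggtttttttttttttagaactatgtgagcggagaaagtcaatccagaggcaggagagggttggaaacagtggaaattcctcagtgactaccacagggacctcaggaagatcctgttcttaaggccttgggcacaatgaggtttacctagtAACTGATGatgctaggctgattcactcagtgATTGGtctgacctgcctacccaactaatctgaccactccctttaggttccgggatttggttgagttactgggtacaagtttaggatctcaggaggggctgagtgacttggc
In the H2-Eb1 window the X box core began 89 bases before the start and the Y box core 59 bases before it, with 22 bases between them. In the H2-DMb1 window they began 92 and 61 bases before the start, with 23 bases between. The H2-Aa window held the Y box core 48 bases before the start, and its only match to the X box core was on the other strand, 232 bases before the start. H2-DMa had 2 RefSeq windows, of which 1 held a Y box core, 198 bases before its start, and neither an X box core.

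The Y box core was common, in 37.4% of the 32851 mouse promoter windows searched, and the X box core was found in 9.83% of them. An X box core followed on the same strand by a Y box core after 20 to 25 bases was found in 22 windows (0.067%). Among these were the windows of the class II genes H2-DMb1, H2-DMb2, H2-Eb1 and H2-Eb2 and of the class I genes H2-D1, H2-M3, H2-Q4, H2-Q6 and H2-Q7. Windows of genes that are neither also held the pair, such as those of Gmnc, Hrnr, Mtm1, Obox2, Scaper, Sun1 and Tuba3a. The distance and the letters of the X box core were set after class II windows had been looked at. Of 12 class II genes looked for, 8 had a window counted here, among them 4 of the 7 members. Sequences of chromosome 18, where Cd74 lies, are not printed here, so the count does not say that Cd74 has no window. The Y box core began 100 bases before the start in H2-Eb2, 43 in H2-Oa, 57 in H2-Ob and 90 in H2-DMb2, the class II genes outside the group that had a window. The matches describe letters in a window and were not tested for protein binding, and a box with other letters would go unmarked.

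**Figure D1:**
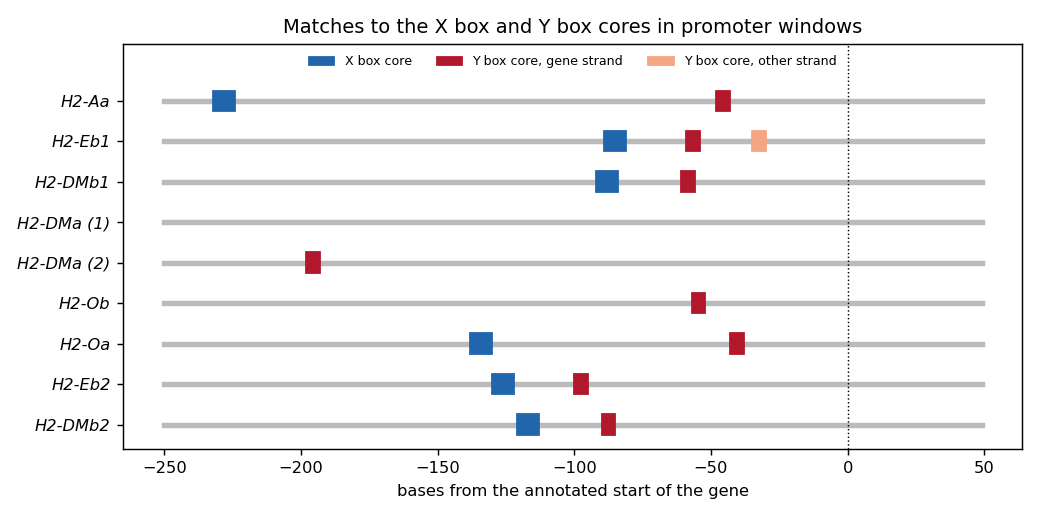
Positions of X box core and Y box core matches in the RefSeq windows of 8 class II genes, drawn to scale in bases from the start of the gene; each row is 1 window, and H2-DMa has 2. H2-Eb1, H2-DMb1, H2-Eb2 and H2-DMb2 hold an X box core with a Y box core 22 or 23 bases after it, and H2-Oa holds them 87 bases apart. The only match to the X box core letters in H2-Aa is on the other strand, 232 bases before the start. Such a match occurs in 9.83% of all windows.

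On GRCm38, 5 of the members lie in the MHC region of chromosome 17. H2-Aa (ENSMUSG00000036594) is at 34282744 to 34287823 on the minus strand. On the plus strand are H2-DMa (ENSMUSG00000037649) at 34119541 to 34139101, H2-DMb1 (ENSMUSG00000079547) at 34153072 to 34160230, H2-Ab1 (ENSMUSG00000073421) at 34257689 to 34269419 and H2-Eb1 (ENSMUSG00000060586) at 34305867 to 34316674. Cd74 (ENSMUSG00000024610) is on chromosome 18 at 60803848 to 60812652, and Ciita (ENSMUSG00000022504) on chromosome 16 at 10480059 to 10528418, both on the plus strand. How reads with several matches and reads on the other strand were counted is not given in the sources used here. H2-DMb1 is therefore uncertain, since 22.7% of the stretches of 50 bases in its transcripts also occur in H2-DMb2. H2-DMa is uncertain too, with 10.4% of its exonic bases shared with Brd2 on the opposite strand, and Ciita shares 3.45% with Dexi. Which of these genes is affected most was not tested. H2-Ab1 and H2-Eb1 share no exonic bases with another gene and Cd74 shares 12 bases with Mir5107.

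Library totals ran from 20215781 to 36816818 counts, of which mitochondrially encoded genes took 52.0% to 71.8%. Their share was 65.0% to 68.8% at 14 days, 52.0% to 63.3% at 1 day and 65.0% to 71.8% in sham. The TMM factors were 0.863 to 1.04, 1.07 to 1.46 and 0.774 to 0.948 in that order. In both, the 1-day mice did not overlap with the other groups. In each of the 9 replicate pairs the libraries differed by more than sampling noise, with a chi-square of 7.42 to 97.3 per degree of freedom. Cardiomyocyte markers, the tissue's defining genes, summed to 15382 to 20994 CPM (read counts scaled to the TMM-adjusted library size) at 14 days, 7540 to 14490 CPM at 1 day and 21588 to 23637 CPM in sham. Mouse 6 stood apart from mice 4 and 5, with neutrophil markers at 47.7 CPM and cardiomyocyte markers at 14490 CPM, against at least 111 CPM and at most 9022 CPM in mice 4 and 5.

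Per kilobase of merged exons, the invariant chain was the most abundant member and the transactivator the least. Cd74 averaged 40.6 ± 13.5 CPM per kilobase at 14 days, 17.6 ± 4.96 at 1 day and 24.9 ± 1.35 in sham (SD, n = 3 each). It lay above H2-Aa in 9 of 9 libraries. H2-Aa (15.1 ± 5.36, 4.12 ± 1.17 and 8.04 ± 1.49 CPM per kilobase at 14 days, at 1 day and in sham) and H2-Eb1 (14.1 ± 4.94, 4.58 ± 1.17 and 8.59 ± 1.87) were not separated in order, H2-Aa being above H2-Eb1 in 4 of 9 libraries. H2-Ab1 (8.84 ± 3.15, 3.23 ± 0.867 and 5.0 ± 0.757 CPM per kilobase) was below H2-Eb1 in 9 of 9 libraries, although the ranges of this pair overlapped at 14 days and at 1 day. The DM genes and Ciita were lower, each at or below 1.23 CPM per kilobase on average. H2-DMb1 (1.23 ± 0.584, 1.18 ± 0.160 and 0.740 ± 0.201 CPM per kilobase) lay above H2-DMa (1.03 ± 0.297, 0.713 ± 0.0623 and 0.553 ± 0.0525) in 8 of 9 libraries. Ciita, at 0.312 ± 0.138, 0.278 ± 0.0335 and 0.189 ± 0.0626 CPM per kilobase, was below H2-DMa in 9 of 9 libraries.

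The alpha chain of the A molecule, H2-Aa, had 36.0, 59.5 and 76.5 CPM in the 14-day libraries A, B and C, then 13.6, 12.5 and 20.7 CPM in the 1-day mice 4, 5 and 6, and 27.4, 27.2 and 37.1 CPM in the sham mice 1, 2 and 3. Its partner, the beta chain H2-Ab1, had 14.3, 23.4 and 30.4 CPM at 14 days, then 7.60, 6.51 and 10.8 CPM at 1 day, and 11.8, 11.6 and 15.1 CPM in sham. For both chains the 1-day mice lay below all sham mice and below all 14-day libraries, and library A lay within the sham range. The beta chain of the E molecule, H2-Eb1, had 17.5, 27.9 and 36.6 CPM at 14 days, then 7.38, 7.82 and 11.5 CPM at 1 day, and 13.8, 15.6 and 20.8 CPM in sham. It had the same order of groups, again with library A within the sham range. Cd74 had 46.0, 67.4 and 91.2 CPM at 14 days, then 26.4, 23.2 and 38.9 CPM at 1 day, and 39.5, 41.9 and 44.0 CPM in sham. Its 3 groups did not overlap, mouse 6 lying just under the lowest sham mouse and library A just above the highest.

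The genes that load and switch on the system did not share the low CPM at 1 day. H2-DMa, the alpha chain of the peptide exchanger, had 2.49, 3.61 and 4.54 CPM at 14 days, then 2.42, 2.26 and 2.69 CPM at 1 day, and 1.76, 1.85 and 2.11 CPM in sham. All I/R libraries lay above all sham mice, and the 14-day and 1-day libraries overlapped. H2-DMb1, its beta chain, had 1.35, 1.67 and 3.19 CPM at 14 days, then 1.77, 1.91 and 2.29 CPM at 1 day, and 0.963, 1.62 and 1.15 CPM in sham. Its 1-day mice lay above the sham mice, while the 14-day libraries overlapped with both other groups. Ciita had 1.52, 3.31 and 4.09 CPM at 14 days, then 2.38, 2.58 and 3.00 CPM at 1 day, and 1.51, 1.42 and 2.49 CPM in sham. Its groups overlapped in all pairs, with library A at the level of sham mice 1 and 2. These 3 genes rest on few reads, from 89 counts (H2-DMb1 over the 3 sham mice) to 306 counts (H2-DMa over the 3 libraries at 14 days), where H2-Aa had 1381 to 4942 counts per group.

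**Figure D2:**
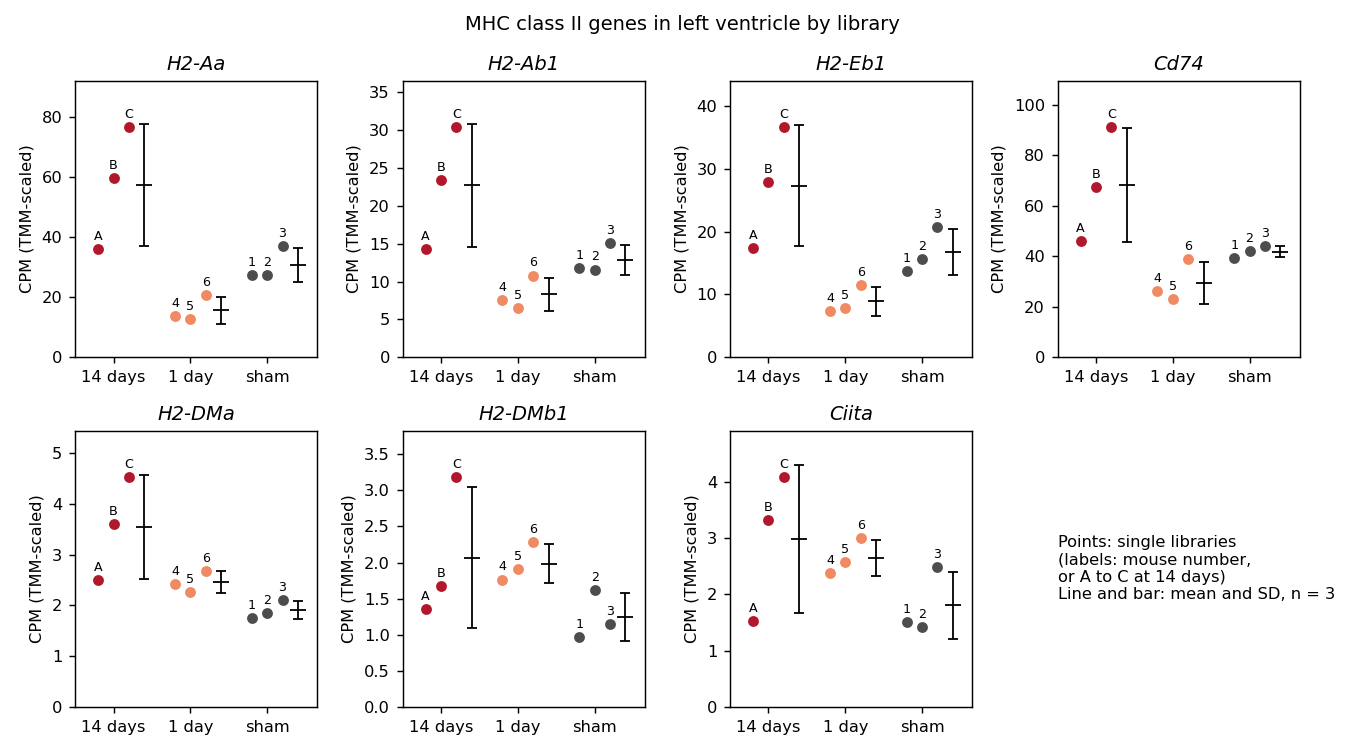
CPM on TMM-scaled library sizes of the 7 class II genes in each library, at 14 days, at 1 day and in sham; points are libraries (A to C at 14 days, otherwise the mouse number), and the line and bar beside them are the mean and SD of 3. H2-Aa, H2-Ab1, H2-Eb1 and Cd74 are lowest at 1 day, with mouse 6 above mice 4 and 5, while H2-DMa and H2-DMb1 at 1 day are above the sham mice and Ciita overlaps with them.

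At 1 day after I/R, 2 of the 7 genes fell against sham and 0 rose, on a background in which 54.2% of all genes tested were called (24.8% of those tested lower and 29.4% higher). H2-Aa fell by 0.97 on the log2 scale (SE 0.29, edgeR adjusted p = 0.0181), which is 1.96-fold, to a mean of 15.6 ± 4.45 CPM at 1 day against 30.5 ± 5.64 CPM in sham (SD, n = 3 each). H2-Eb1 fell by 0.91 (SE 0.29, edgeR adjusted p = 0.0225), to 8.91 ± 2.27 CPM at 1 day against 16.7 ± 3.63 CPM in sham. H2-Ab1 (log2 fold -0.63, SE 0.28, edgeR adjusted p = 0.0807) and Cd74 (-0.51, SE 0.25, edgeR adjusted p = 0.107) missed the threshold of 0.05, although their 1-day mice lay below all sham mice. H2-DMa had a log2 fold of 0.37 (SE 0.22, edgeR adjusted p = 0.177), H2-DMb1 of 0.63 (SE 0.33, edgeR adjusted p = 0.120) and Ciita of 0.59 (SE 0.34, edgeR adjusted p = 0.163), none past the threshold. Groups were without overlap in 4 members on the lower side and in 2 on the higher, where all genes tested gave 29.7% and 33.5%. The median log2 fold was -0.51 over the 7 members and 0.04 over all genes tested. In bulk tissue, fewer cells that carry a transcript and less of it per cell cannot be told apart.

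These calls at 1 day were close to the threshold. They ended for both genes without sham mouse 3 (log2 fold -0.81 for H2-Aa and -0.74 for H2-Eb1) and without mouse 5 (-0.83 for each), and for H2-Eb1 also without mouse 4 (-0.81), with edgeR adjusted p from 0.0556 to 0.0707. With no filter on low counts they ended as well (edgeR adjusted p of 0.0835 and 0.0973). The number of members called was 5 without library A (H2-Aa, H2-Eb1, H2-Ab1 and Cd74 lower and Ciita higher), 4 without library C, 3 without mouse 6 (Cd74 added at -0.75) and 0 without sham mouse 3 or mouse 5. All genes called in these fits numbered 7903, 7816, 8511, 6681 and 6391 in that order, against 7649 in the main fit. Libraries A and C are in neither group of this comparison and act on it only through the shared fit. Scaling by total count alone moved the median of all genes by 0.48 on the log2 scale in this comparison, by 0.09 at 14 days against sham and by -0.39 at 14 days against 1 day. Under it 6860 genes were called higher and 1057 lower at 1 day, where the TMM scaling gave 4153 and 3496. H2-Aa (-0.49, edgeR adjusted p = 0.131) and H2-Eb1 (-0.43, edgeR adjusted p = 0.157) were then lower but not called, and H2-DMa (0.86), H2-DMb1 (1.11) and Ciita (1.07) were called higher. In all 18 alternatives H2-Aa, H2-Ab1, H2-Eb1 and Cd74 had a negative log2 fold at 1 day against sham, and H2-DMa, H2-DMb1 and Ciita a positive one.

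At 14 days after I/R, 1 of the 7 genes, H2-DMa, rose against sham, where 8.75% of all genes tested were called higher, 5.64% lower and 14.4% in all. This comparison shares its 3 sham mice with the previous one. H2-DMa rose by 0.90 on the log2 scale (SE 0.22, edgeR adjusted p = 0.020), a fold of 1.86, with 3.55 ± 1.02 CPM at 14 days against 1.91 ± 0.181 CPM in sham (SD, n = 3 each). The other members had positive log2 folds that missed the threshold, from 0.69 (H2-DMb1, SE 0.33, edgeR adjusted p = 0.179) to 0.91 (H2-Aa, SE 0.28, edgeR adjusted p = 0.0591). Between these were Cd74 (0.71, SE 0.24, edgeR adjusted p = 0.0812), H2-Eb1 (0.72, SE 0.27, edgeR adjusted p = 0.112), Ciita (0.76, SE 0.34, edgeR adjusted p = 0.155) and H2-Ab1 (0.83, SE 0.27, edgeR adjusted p = 0.0668). The 14-day libraries lay above all sham mice in 2 members, H2-DMa and Cd74, where 21.0% of all genes tested did so, and below them in 0, where 18.4% did. The median log2 fold was 0.76 over the members and 0.01 over all genes tested.

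Single libraries decided the number of members called at 14 days, and library A moved it most. Without library A 6 of the 7 members were called higher than sham, with log2 folds of 1.16 for H2-Aa, 1.07 for H2-Ab1, 0.96 for H2-Eb1, 0.92 for Cd74 and 1.08 for Ciita (edgeR adjusted p from 0.00444 to 0.0138) and H2-DMa as the sixth. All genes called in that fit numbered 3012 (1823 higher), against 2033 (1236 higher) in the main fit. Without sham mouse 1 or 2 or library B or C the call of H2-DMa ended (log2 fold 0.85, 0.88, 0.88 and 0.68, edgeR adjusted p from 0.0735 to 0.0927), and 0 members were called. The number of all genes called was also moved by single libraries, from 478 without sham mouse 2 to 3221 without mouse 6, and was 832 with total count scaling (720 higher and 112 lower, against 1236 and 797 with TMM). DESeq2 called 4 members higher at 14 days, namely H2-Aa, H2-Ab1 and Cd74 beside H2-DMa. It called 2225 of all genes, 1238 of them higher.

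Between 1 day and 14 days the antigen-presenting chains moved most, and 5 of the 7 genes were higher at 14 days, on a background of 25.1% of all genes called higher, 26.8% lower and 51.9% in all. H2-Aa was 3.68-fold higher at 14 days than at 1 day (log2 fold 1.88, SE 0.29, edgeR adjusted p = 0.000733), with 57.3 ± 20.4 CPM at 14 days and 15.6 ± 4.45 CPM at 1 day (SD, n = 3 each). H2-Eb1 was 3.09-fold higher (1.63, SE 0.28, edgeR adjusted p = 0.0013), with 27.3 ± 9.60 CPM at 14 days and 8.91 ± 2.27 CPM at 1 day. H2-Ab1 was 2.75-fold higher (1.46, SE 0.27, edgeR adjusted p = 0.0018), with 22.7 ± 8.08 CPM at 14 days and 8.31 ± 2.23 CPM at 1 day. Cd74 was 2.31-fold higher (1.21, SE 0.25, edgeR adjusted p = 0.00273), with 68.2 ± 22.6 CPM at 14 days and 29.5 ± 8.32 CPM at 1 day. For these 4 genes the groups did not overlap, and the calls held in 18 of 18 alternatives for each of them.

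The accessory genes and the transactivator moved less over the same interval. H2-DMa was 1.44-fold higher at 14 days than at 1 day (log2 fold 0.53, SE 0.21), at an edgeR adjusted p of 0.0497 and with overlapping groups. Its call held in 6 of 18 alternatives and ended without each of the sham mice 1, 2 and 3, mice 4 and 5 and libraries B and C (edgeR adjusted p from 0.0618 to 0.179). H2-DMb1 (log2 fold 0.05, SE 0.30, edgeR adjusted p = 0.896) and Ciita (0.17, SE 0.31, edgeR adjusted p = 0.672) were not called. Both turned below 0 without library C (-0.35 for H2-DMb1 and -0.09 for Ciita), and their SE leaves room for changes in either direction. The median log2 fold was 1.21 over the members and 0.00 over all genes tested, and 4 members had groups without overlap on the higher side and 0 on the lower, where all genes gave 27.3% and 29.0%. With total count scaling 4 members, the 3 chains and Cd74, were still called higher, while all genes gave 1066 higher and 5469 lower, against 3547 and 3788 with TMM.

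**Figure D3:**
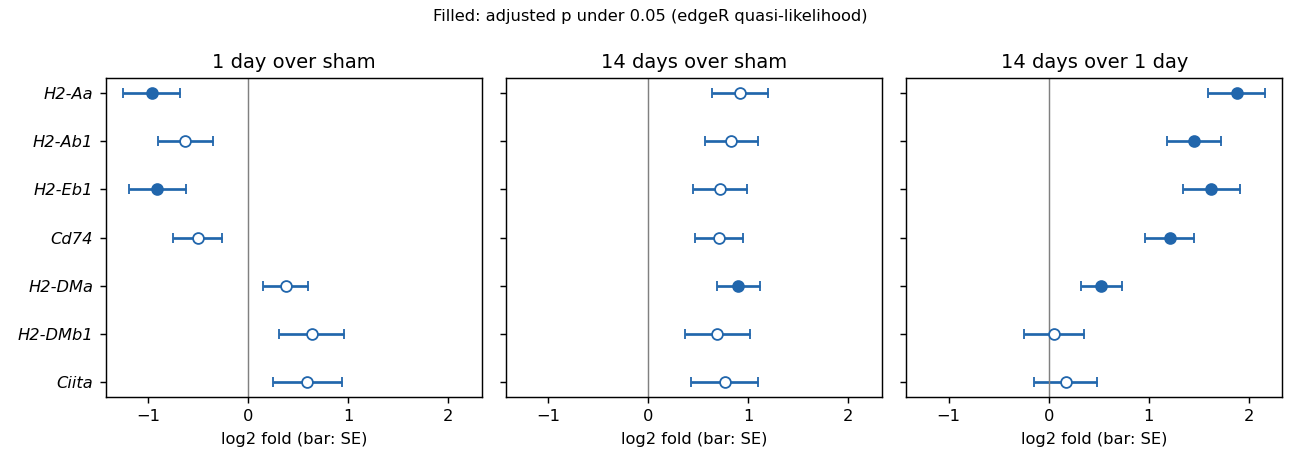
Log2 folds of the 7 class II genes in the 3 comparisons, with bars of 1 SE; filled points passed an edgeR adjusted p of 0.05. The 4 genes H2-Aa, H2-Ab1, H2-Eb1 and Cd74 lie below 0 at 1 day over sham and at 1.21 to 1.88 at 14 days over 1 day, while H2-DMb1 and Ciita lie near 0 at 14 days over 1 day.

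Ratios of counts within a library do not depend on the scaling between libraries. They were chosen after the values had been seen, 16 in all, and are given without a test. The ratio of H2-Aa to Ciita counts was 23.6, 18.0 and 18.7 in libraries A, B and C at 14 days, then 5.73, 4.86 and 6.91 in mice 4, 5 and 6 at 1 day, and 18.2, 19.2 and 14.9 in sham. The 1-day ratios were thus all below the lowest of the other 6 libraries. The ratio of H2-DMa to H2-Aa went the other way, with 0.0693, 0.0606 and 0.0593 at 14 days, then 0.178, 0.180 and 0.130 at 1 day, and 0.0642, 0.0682 and 0.0569 in sham. The ratio of H2-DMb1 to H2-Aa averaged 0.0358 ± 0.00697 at 14 days, 0.131 ± 0.0209 at 1 day and 0.0419 ± 0.0154 in sham (SD, n = 3 each). Among the abundant genes the differences were smaller but also without overlap at 1 day. H2-Aa to H2-Ab1 was 2.52, 2.55 and 2.52 at 14 days, then 1.79, 1.93 and 1.92 at 1 day, and 2.31, 2.35 and 2.46 in sham. Cd74 to H2-Aa was 1.28, 1.13 and 1.19 at 14 days, then 1.94, 1.85 and 1.88 at 1 day, and 1.44, 1.54 and 1.19 in sham. H2-Eb1 to H2-Aa averaged 0.477 ± 0.00823 at 14 days, 0.573 ± 0.0439 at 1 day and 0.545 ± 0.0371 in sham, with overlap between 1 day and sham. The class II genes thus changed unequally at 1 day, with H2-Aa low relative to its partner chain H2-Ab1, Cd74, the DM genes and Ciita.

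Set against leukocyte genes, the summed counts of the chains and Cd74 were lowest at 1 day as well. The counts of H2-Aa, H2-Ab1, H2-Eb1 and Cd74, summed and divided by those of Ptprc (CD45, on all leukocytes), gave 10.7, 9.71 and 9.43 at 14 days, then 2.28, 1.91 and 3.93 at 1 day, and 9.60, 10.2 and 11.0 in sham. The 14-day libraries overlapped with sham in this ratio, and library A, lowest in CPM, had the highest ratio of the 14-day libraries. Divided by the macrophage gene C1qa, the same sum averaged 4.92 ± 0.137 at 14 days, 3.00 ± 1.08 at 1 day and 5.76 ± 1.00 in sham, and divided by Csf1r, the receptor for macrophage growth factor, 4.38 ± 0.708, 2.15 ± 0.645 and 3.78 ± 0.387 (SD, n = 3 each). In each of these ratios mouse 6 was the highest of the 1-day mice, and all 1-day mice were below all others. Relative to Ptprc, H2-DMa and Ciita counts were also lowest on average at 1 day. H2-DMa had no overlap, while for Ciita mouse 6 (0.143777, from 67 Ciita counts) all but equalled library A (0.143791, from 44). H2-DMa to Ptprc averaged 0.205 ± 0.0274 at 14 days, 0.105 ± 0.0216 at 1 day and 0.192 ± 0.00834 in sham, and Ciita to Ptprc 0.163 ± 0.0184, 0.114 ± 0.0261 and 0.180 ± 0.0465. H2-Aa to the class I gene H2-K1 averaged 1.10 ± 0.226 at 14 days, 0.439 ± 0.126 at 1 day and 0.697 ± 0.0508 in sham, with no overlap between any of the groups.

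**Figure D4:**
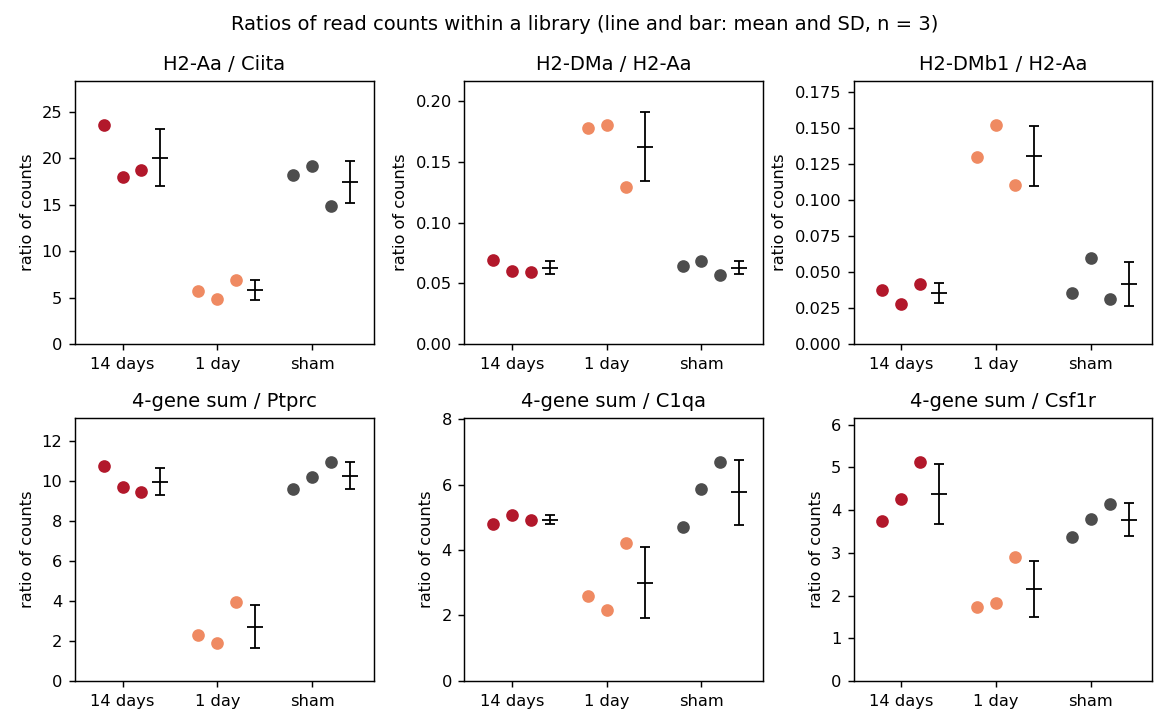
Ratios of read counts within each library at 14 days, at 1 day and in sham; points are libraries, and the line and bar beside them are the mean and SD of 3. The 4-gene sum is H2-Aa, H2-Ab1, H2-Eb1 and Cd74. The 1-day points are below all others for H2-Aa to Ciita and for the 4-gene sum over Ptprc, C1qa and Csf1r, and above all others for the DM genes over H2-Aa.

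Markers of the cells that can carry class II, and of other cells, also differed between the groups, and their part in the class II results was not tested. General macrophage markers summed to 226, 346 and 426 CPM in libraries A, B and C at 14 days, which is the order of the class II genes in them and also of the resident macrophage, pan-leukocyte, monocyte and fibroblast sums, against 222 to 252 CPM at 1 day and 151 to 168 CPM in sham. Of 10 such markers tested 4 rose at 1 day and 8 rose at 14 days against sham, and 0 fell. Resident macrophage markers summed to 146 to 205 CPM at 14 days, 140 to 144 CPM at 1 day and 119 to 130 CPM in sham. Of 9 tested, 2 rose and 3 fell at 1 day and 2 rose at 14 days against sham. Pan-leukocyte markers summed to 34.8 to 78.1 CPM at 14 days, 88.8 to 104 CPM at 1 day and 27.1 to 32.6 CPM in sham, with 7 of 7 higher at 1 day. Monocyte markers (6.61 to 18.9, 47.0 to 53.8 and 3.50 to 4.54 CPM) and neutrophil markers (2.18 to 3.35, 47.7 to 130 and 1.67 to 4.54 CPM) were also highest at 1 day, with 6 of 6 tested genes higher than sham in each list. At 1 day leukocyte RNA was thus high while the RNA of H2-Aa and H2-Eb1 was low. Fibroblast markers summed to 2043 to 4319 CPM at 14 days, 758 to 882 CPM at 1 day and 861 to 1216 CPM in sham. Of 7 tested, 1 rose and 3 fell at 1 day and 5 rose at 14 days against sham, and 5 were higher at 14 days than at 1 day.

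Dendritic cell markers summed to 18.3 to 29.6 CPM at 14 days, 25.9 to 27.4 CPM at 1 day and 19.3 to 21.8 CPM in sham. The largest part by gene in each group was Zbtb46, which endothelial cells also express, at 12.7 CPM at 14 days, 11.8 CPM at 1 day and 15.2 CPM in sham. Of 8 tested dendritic genes 5 rose and 1, Zbtb46, fell at 1 day, and 4 rose at 14 days against sham. Flt3, the receptor for a dendritic growth factor, rose at both times (log2 fold 3.22 at 1 day and 3.29 at 14 days, edgeR adjusted p = 0.0031 and 0.014), from 4 counts over the sham libraries. B cell markers summed to 6.58 to 17.4 CPM at 14 days, 3.05 to 3.26 CPM at 1 day and 5.11 to 6.57 CPM in sham, with the antibody gene Ighm as the largest part in each group (11.1, 1.98 and 4.43 CPM on average in that order). Of 3 B cell genes tested, Ighm was the only one called in any comparison. The others had log2 folds of -0.41 and 0.30 at 1 day against sham. Ighm fell by 1.18 at 1 day (SE 0.37, edgeR adjusted p = 0.022), rose by 1.32 at 14 days (SE 0.33, edgeR adjusted p = 0.027) and was higher at 14 days than at 1 day (2.49, SE 0.35, edgeR adjusted p = 0.00038). The B cell genes Ms4a1 and Cd79a were too low to test, each under 0.4 CPM on average in all groups. T cell markers were too low as well, with 0 of 10 past the filter and sums of 0.866 to 2.21 CPM at 14 days, 0.724 to 0.874 CPM at 1 day and 0.741 to 1.09 CPM in sham.

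The other class II loci were at the edge of detection. H2-Ob, the beta chain of H2-O, which holds H2-DM in check, had 0.970, 1.08 and 0.613 CPM at 14 days, then 0.362, 0.357 and 0.493 CPM at 1 day, and 0.544, 0.539 and 0.192 CPM in sham. It was higher at 14 days than at 1 day (log2 fold 1.18, SE 0.35, edgeR adjusted p = 0.0152), with no overlap, and was not called against sham at 1 day (-0.19) or 14 days (0.99). That call ended without mouse 4, mouse 5 or library B (edgeR adjusted p from 0.0518 to 0.0712). H2-DMb2 (63 counts over the 9 libraries), H2-Oa (35), H2-Eb2 (16) and H2-Ea-ps (1) did not pass the filter.

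The genes of the promoter complex differed from sham by less than 1 on the log2 scale. Of 7 tested, 2 rose and 1 fell at 1 day, and 0 were called at 14 days, with log2 folds from -0.33 to 0.28. Nfya, the subunit of NF-Y that reads the CCAAT motif, rose by 0.41 (SE 0.10, edgeR adjusted p = 0.0050) at 1 day, and Nfyc, another NF-Y subunit, fell by 0.72 (SE 0.12, edgeR adjusted p = 0.00056), which with total count scaling was -0.24 and not called. Rfxank, a subunit of the X box factor RFX, rose by 0.35 (SE 0.13, edgeR adjusted p = 0.034), a call that ended without sham mouse 1 or 3, mouse 6 or library C (edgeR adjusted p from 0.0691 to 0.122). Rfx5, the DNA-binding subunit of RFX, had 5.65 ± 0.715 CPM at 14 days, 4.25 ± 0.762 CPM at 1 day and 4.69 ± 0.847 CPM in sham (SD, n = 3 each) and was called in no comparison. Between 14 days and 1 day, Rfxank (-0.41) and Nfya (-0.28) were lower and Nfyc (0.39) and Creb1 (0.33), whose product binds the X2 element, were higher. These 4 calls were sensitive: leaving out single libraries ended that of Nfya in 6 cases, of Nfyc in 3 and of Rfxank in 2, with edgeR adjusted p from 0.0516 to 0.123, and total count scaling turned Creb1 to -0.052 and left Nfyc at 0.0058.

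Of the interferon gamma chain that induces Ciita, the ligand itself was not measurable. Ifng had 1 count in the 9 libraries together, in library B. Of the 6 tested genes of this list, 1 rose and 1 fell at 1 day, 1 rose at 14 days against sham, and 2 were higher and 1 lower at 14 days than at 1 day. Ifngr2, the signalling chain of the receptor, fell by 0.80 at 1 day (SE 0.11, edgeR adjusted p = 0.00021; -0.33 and not called with total count scaling), with 74.5 ± 5.96 CPM at 14 days, 50.2 ± 6.23 CPM at 1 day and 87.2 ± 4.66 CPM in sham (SD, n = 3 each). Ifngr1, the binding chain, rose by 0.64 at 14 days (SE 0.08, edgeR adjusted p = 0.0028), with 32.4 ± 1.95 CPM at 14 days, 20.3 ± 0.969 CPM at 1 day and 20.8 ± 1.10 CPM in sham. Jak2, the kinase on Ifngr2, rose by 0.50 at 1 day (SE 0.10, edgeR adjusted p = 0.0014) and was lower at 14 days than at 1 day (-0.26), a call that ended in 7 of the 9 fits with a library left out. Irf1, an interferon gamma target that acts on the Ciita promoter, was called in no comparison, with 10.8 ± 1.07 CPM at 14 days, 9.71 ± 0.818 CPM at 1 day and 8.82 ± 0.289 CPM in sham.

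Of the endosomal genes that prepare peptides and trim Cd74, some rose and some fell at 1 day. Of 9 tested, 4 rose and 2 fell at 1 day, and 5 rose at 14 days against sham, with median log2 folds of 0.14 and 0.50, where all genes had 0.04 and 0.01. Ifi30, the reductase GILT that opens disulfides in antigens, rose by 2.07 at 1 day (SE 0.28, edgeR adjusted p = 0.00019) and by 1.15 at 14 days (SE 0.29, edgeR adjusted p = 0.024). Its levels were 4.10 ± 1.501 CPM at 14 days, 7.71 ± 1.18 CPM at 1 day and 1.83 ± 0.481 CPM in sham (SD, n = 3 each). Ctss, cathepsin S, the main protease that trims Cd74, rose by 1.54 at 1 day (SE 0.26, edgeR adjusted p = 0.00086) and by 1.34 at 14 days (SE 0.26, edgeR adjusted p = 0.011). It had 22.1 ± 9.03 CPM at 14 days, 25.4 ± 1.89 CPM at 1 day and 8.69 ± 0.596 CPM in sham. Cathepsin S and Ifi30 were thus high at the time when H2-Aa was lowest.

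Among the other proteases, Ctsz rose at 1 day (1.44, SE 0.18) and at 14 days (0.95, SE 0.18), and Lgmn, the asparagine endopeptidase, rose at 1 day (1.08, SE 0.14). Ctsh fell at 1 day (-0.44, SE 0.12) and rose at 14 days (0.50, SE 0.12), Ctsl, which trims Cd74 in thymic epithelium, rose at 14 days (0.63, SE 0.12), and Sppl2a, which cleaves the last membrane stub of Cd74, fell at 1 day (-0.34, SE 0.09), but with total count scaling the 1-day values of Ctsh and Sppl2a were 0.038 and 0.14. From 1 day to 14 days, Ctsh (0.94), Ctsl (0.79), Sppl2a (0.60) and Ctsd (0.37) were higher, and Lgmn (-0.63), Ctsz (-0.49) and Ifi30 (-0.93) lower. Leaving out sham mouse 2 ended the calls of Ctss, Ctsl, Ctsz, Ctsh and Ifi30 at 14 days against sham (edgeR adjusted p from 0.0512 to 0.119). The call of Ctsh also ended without sham mouse 1 or library C (edgeR adjusted p from 0.0624 to 0.097 over the 3 fits), and that of Ifi30 without sham mouse 3 or library B or C (0.0764 to 0.119 over 4 fits). Single libraries left out also ended the calls at 14 days against 1 day of Ctsd in 7 cases and of Ctsz in 5.

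Of the genes that set how long class II stays at the surface, March1, the ubiquitin ligase that sends it to lysosomes, rose by 1.01 at 14 days (SE 0.25, edgeR adjusted p = 0.022) and by 0.67 at 1 day (SE 0.25, edgeR adjusted p = 0.043). It had 4.28 ± 1.43 CPM at 14 days, 3.39 ± 0.442 CPM at 1 day and 2.15 ± 0.289 CPM in sham (SD, n = 3 each). The call at 14 days ended without each of the 3 sham mice and libraries B and C (edgeR adjusted p from 0.0543 to 0.116), and that at 1 day without each of the 3 sham mice, the 3 1-day mice and library C (0.0516 to 0.162). Cd83, whose product opposes March1 in mature dendritic cells, fell by 1.68 at 1 day (SE 0.28, edgeR adjusted p = 0.00062). It had 4.13 ± 1.03 CPM at 14 days, 1.24 ± 0.405 CPM at 1 day and 3.86 ± 1.15 CPM in sham. It was higher at 14 days than at 1 day (1.76, SE 0.28, edgeR adjusted p = 0.00046), and its 2 calls held in all 18 alternatives. March8, a related ligase, was called in no comparison, with 23.4 ± 1.43 CPM at 14 days, 23.6 ± 2.11 CPM at 1 day and 23.6 ± 2.50 CPM in sham.

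**Figure D5:**
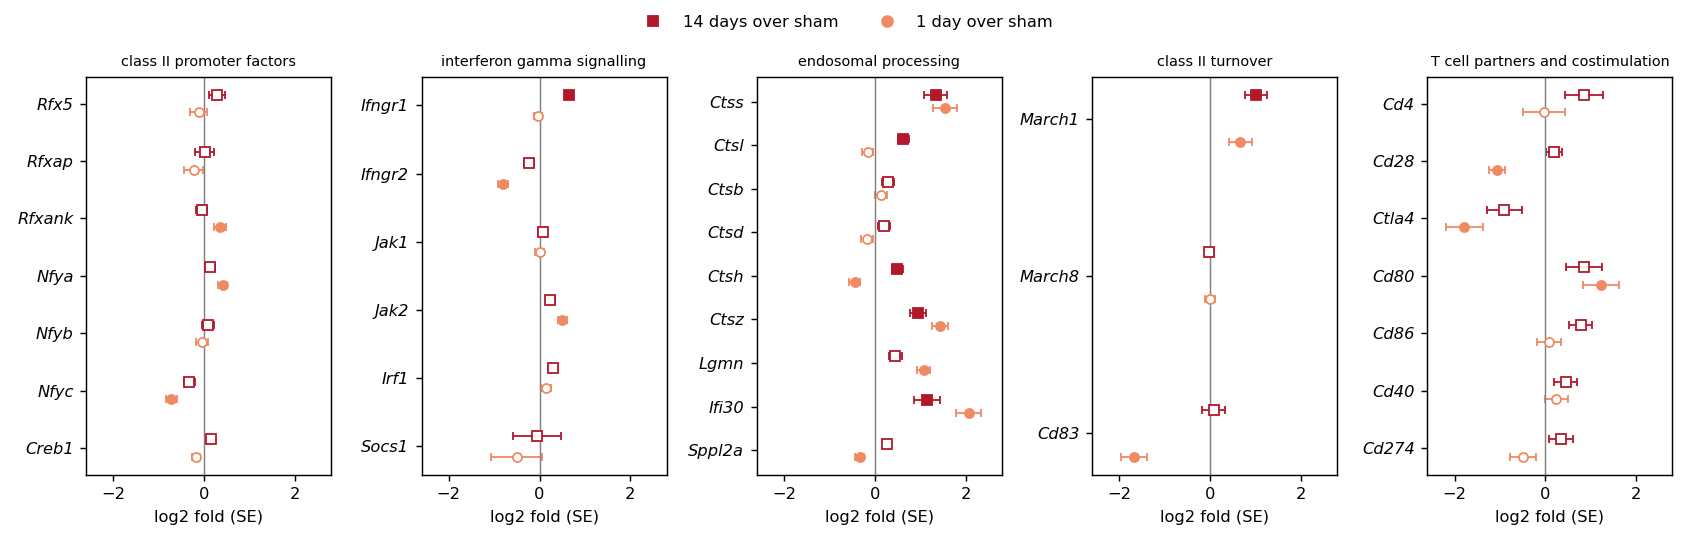
Log2 folds at 14 days over sham (squares) and at 1 day over sham (circles), with bars of 1 SE, for 5 lists of genes around class II presentation; filled points passed an edgeR adjusted p of 0.05. Cd83 and Ctla4 lie lowest at 1 day, and Ifi30, Ctss and Ctsz lie above 0 at both times.

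On the side of the T cell and of costimulation 7 of 10 listed genes could be tested, of which 1 rose and 2 fell at 1 day and 0 were called at 14 days against sham. Cd80, a ligand of CD28, rose by 1.23 at 1 day (SE 0.39, edgeR adjusted p = 0.019), a call that ended without sham mouse 2 or 3 or mouse 4 or 5 (edgeR adjusted p from 0.0509 to 0.0793). Cd28 fell by 1.06 (SE 0.18, edgeR adjusted p = 0.00067), with 3.73 ± 0.519 CPM at 14 days, 1.60 ± 0.291 CPM at 1 day and 3.28 ± 0.0747 CPM in sham (SD, n = 3 each). Ctla4, the inhibitory receptor, fell by 1.78 (SE 0.42, edgeR adjusted p = 0.0039), with 0.710 ± 0.309 CPM at 14 days, 0.411 ± 0.272 CPM at 1 day and 1.36 ± 0.125 CPM in sham. Cd28 and Ctla4 are T cell genes, while the T cell receptor genes in the same libraries were too low to test. Relative to 1 day, Cd28 at 14 days (1.25, SE 0.18), Cd274, which encodes PD-L1 (0.83, SE 0.28), and Cd86, the other CD28 ligand (0.70, SE 0.25), were higher, the calls of Cd274 and Cd86 ending with 3 and 4 of the libraries left out (edgeR adjusted p from 0.0732 to 0.132). Cd4, the coreceptor for class II, was called in no comparison, with 0.704 ± 0.307 CPM at 14 days, 0.377 ± 0.134 CPM at 1 day and 0.414 ± 0.127 CPM in sham.

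For comparison, of 10 genes of the MHC class I pathway 1 rose (Tap1, 0.46) and 1 fell (Tapbp, -0.26, which was 0.23 with total count scaling) at 1 day, and 0 were called at 14 days against sham. Of this list B2m (0.94, SE 0.17), H2-K1 (0.52, SE 0.13), H2-D1 (0.41, SE 0.15) and Tapbp (0.34, SE 0.09) were higher at 14 days than at 1 day, the last at -0.039 with total count scaling. The call of H2-D1 ended without mouse 5 or 6 or library B or C (edgeR adjusted p from 0.0814 to 0.0998). The calls of Tap1 and Tapbp at 1 day ended with 5 and 4 of the libraries left out (edgeR adjusted p from 0.0501 to 0.221). Total count scaling ended the calls at 14 days against 1 day of the member H2-DMa and of H2-K1, H2-D1, Tapbp, H2-Ob, Cd274, Cd86, Ctsl, Ctsd, Sppl2a, Ifngr1, Ifngr2, Nfyc and Creb1, while those of the 3 class II chains, Cd74, B2m, Cd83, Cd28 and Ctsh held.

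The genes whose pattern over the 9 libraries was most like the mean of the 7 members were Thsd7a, Eda, Serpine2, Hacd4, Trim5, Gpx3, Ebf2 and Sytl2. Likeness was the root mean square difference of centred log2 CPM over 9 libraries, and these 8 lay between 0.144 and 0.193 of 11389 genes compared. The members themselves lay between 0.165 (Cd74) and 0.487 (H2-DMb1) from their own mean. Ciita alone was most like Clec4a1 (0.177), Cysltr1 (0.201), Klf10 (0.204), Icam1 (0.205) and Trim30d (0.215), and was itself 0.431 from the mean of the members.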

How the data were processed

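The labels' protocols state extraction of total RNA with TRIzol, removal of ribosomal RNA and stranded library preparation. STAR 2.7.1a and build GRCm38 (mm10) are named in the submitters' processing notes. The authors deposited counts, whole numbers for each gene with no normalization. Which program, annotation and strand setting produced the counts, and what was done with reads that match several places, is not given in the sources used here. edgeR 4.0.16 in R 4.3.3 supplied the test (quasi-likelihood, TMM scaling, robust dispersion, its own filter on low counts) in 1 fit of 9 libraries, and it was checked on simulated counts. The simulation changed a small share of genes at 1 day, evenly up and down. It therefore could not check the test or its scaling where 54.2% of genes are called, as at 1 day against sham. Adjusted p is the Benjamini-Hochberg value over 14124 genes, with a threshold of 0.05. Log2 CPM for likeness used a prior count of 2. Precision is limited by the read counts given and by 3 mice per group.

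The members and the 19 gene lists were chosen with earlier results of these data known. Some genes of these lists are not reported here and were left out of their counts and sums. All members are named in every comparison, and of each list of pathway genes the called genes, or at most the 6 of highest CPM. Cell type markers are given as counts and sums, with a gene named only where it defines the type. Rfx5, Irf1, March8, Cd4, Ighm, the low value of Ifi30 at 14 days against 1 day, the count ratios, the letters of the X box core and the distance between promoter motifs were chosen after their values had been seen. Promoter sequences are RefSeq's, on GRCm38.p6. As 18 alternatives, other scalings (DESeq2 size factors, total count, upper quartile, without mitochondrially encoded genes), no filter or one of 1 CPM in 3 libraries, fits restricted to the groups compared, 9 fits with a library left out, limma-voom (limma 3.58.1) and DESeq2 1.42.0 were run. Figures were drawn with matplotlib 3.10.9.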

Additional observations from a re-analysis of the deposited data

Results flagged for a closer look

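The effect of I/R against the same 3 sham mice differed between 14 days and 1 day in 5 of the 7 genes, by the edgeR test of 14 days against 1 day, which is the test of that difference. The same test called 51.9% of all genes tested, 25.1% higher and 26.8% lower. The difference was 1.88 on the log2 scale for H2-Aa, 1.63 for H2-Eb1, 1.46 for H2-Ab1, 1.21 for Cd74 and 0.53 for H2-DMa, all of them higher at 14 days. For H2-DMa the groups overlapped and the call held in 6 of 18 alternatives.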

How the results depend on the processing

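The calls of H2-Aa, H2-Ab1, H2-Eb1 and Cd74 at 14 days against 1 day held in 18 of 18 alternatives. The number of members called at 1 day against sham was 2, against 0 with no filter on low counts, 4 in the fit of the groups compared alone and 0 to 5 with libraries left out. With total count scaling the number was 3, all of them higher, where the 2 of the main fit were lower. At 14 days against sham it was 1, against 3 with total count scaling, 2 with the filter of 1 CPM in 3 libraries, 4 with DESeq2 and 0 to 6 with libraries left out. All genes called in that comparison numbered 2033, against 832 with total count scaling and 478 to 3221 with libraries left out. The cause was not tested.

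Directions turned for values near 0 and also for some calls of the main fit. With total count scaling, Ciita (-0.18), H2-DMb1 (-0.29), Creb1 (-0.052) and Tapbp (-0.039) turned at 14 days against 1 day. At 1 day against sham, Ctsh (0.038), Sppl2a (0.14) and Tapbp (0.23) turned under it. In the main fit Ctsh (-0.44) and Sppl2a (-0.34) were called at 1 day against sham. Creb1 (0.33) was called at 14 days against 1 day, and Tapbp in both comparisons. At 14 days against 1 day H2-DMb1 also turned without mouse 4 (-0.026), without library C (-0.35) and with limma-voom (-0.039), and Ciita without library C (-0.086). Over the fits with a library left out, H2-DMb1 ran from -0.35 to 0.28 and Ciita from -0.086 to 0.49.

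No paired analysis was possible because the groups share no replicate numbers and the 14-day columns carry a number that is the same in all 3. Depth limits Ciita and the DM genes most, with 89 to 306 counts per group. With 3 libraries per group, and mouse 6 and library A standing apart from the others of their groups, single libraries decide calls near the threshold. A lone or missing library is assumed to vary like the rest.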
